A study of Caenorhabditis elegans with 2 samples.

Results

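The genes described here are pot-1, pot-2, pot-3, mrt-1 and trt-1, 5 telomere-binding and telomerase genes of Caenorhabditis elegans, out of 19973 nuclear protein-coding genes. They were chosen on measured values, because pot-3 holds the nuclear peak with the highest signal value, while the other 4 were taken for their shared role with it. The strength of the pot-3 peak is therefore a description and supports nothing. For each gene, every peak of 4 deposited lists was taken whose summit lay in the gene or within 5 kb of it, and this gave 1 peak of the final list, 22 of the pooled list, 22 of replicate 1 and 24 of replicate 2.

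The peaks come from chromatin immunoprecipitation sequencing (ChIP-seq) of NFYA-1, the A subunit of the transcription factor NF-Y. The samples are 1 group of 2 biological replicates of whole young adult hermaphrodites of strain OP404, genotype unc-119(tm4063) III; wgIs404, in which a transgene expresses NFYA-1 with a GFP-FLAG tag at its C-terminal end. The precipitation used an antibody against GFP, and the promoter of the transgene is not stated. Both replicates carry the same alleles, their age beyond the stage is given as unknown, and no untagged strain was analysed here. In whole worms, binding in few cells and weak binding in many cannot be told apart. A signal value is the authors' strength of a peak within a list, on a scale that the labels and files do not state, and ranks below count from the strongest nuclear peak of a list. The pooled and replicate lists each held 30000 peaks that include background, so a peak in them is not by itself a call of binding; the final list, thresholded by the authors for agreement between replicates, held 97 peaks, of which 71 were nuclear. Because the 2 samples belong to 1 group, nothing was tested between samples, and the values below are descriptions.

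Worm telomeres end in repeats of TTAGGC. Proteins related to human POT1 hold the single-stranded end, and in worms pot-1 and pot-2 are known to restrain telomere lengthening; pot-3 is another POT1-like gene. Telomerase, whose catalytic subunit is encoded by trt-1, adds the repeats, and mrt-1, which joins a POT1-like DNA-binding domain to a nuclease domain, is needed for its activity. NF-Y is known for binding CCAAT, the NF-Y box, mostly near gene starts.

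The sequence of the pot-3 peak is shown because it carries the strongest nuclear signal and a single NF-Y box. It is given on the strand of the gene, from the WBcel235 (ce11) genome of RefSeq, at chrIII:13780163-13780452, with the CCAAT in capitals:
pot-3 peak: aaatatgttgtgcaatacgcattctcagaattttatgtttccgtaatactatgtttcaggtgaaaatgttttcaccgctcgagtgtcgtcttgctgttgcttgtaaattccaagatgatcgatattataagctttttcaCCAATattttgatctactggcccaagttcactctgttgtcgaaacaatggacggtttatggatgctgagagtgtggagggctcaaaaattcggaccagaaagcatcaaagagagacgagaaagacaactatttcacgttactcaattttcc
The peak begins 52 bp before the annotated gene start at III 13780215, its summit at III 13780308 lies 93 bp after that start in a coding exon, and the box at III 13780302 to 13780306 ends 2 bp before the summit.

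The next pair of sequences is shown because pot-2 carries a peak at the matching place. Aligned over their whole length, the genes pot-2 and pot-3 matched up 883 bases, of which 707 (80.1%) were identical. In a prior BLAST search pot-1 gave 0 alignments to either, so it was not aligned over its whole length. The 101 bp around the pot-3 summit, chrIII:13780258-13780358, and the stretch of pot-2 aligned to them, chrII:14524222-14524322, both on the gene strand, shared 77 of 101 bases. Capitals mark the box of pot-3 and the bases of pot-2 aligned with it:
pot-3: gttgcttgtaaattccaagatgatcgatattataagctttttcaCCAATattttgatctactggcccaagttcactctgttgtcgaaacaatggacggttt
pot-2: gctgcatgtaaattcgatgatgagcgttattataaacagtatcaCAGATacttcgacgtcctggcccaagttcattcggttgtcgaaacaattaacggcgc
Of the 5 bases of the box, 3 were the same in pot-2, and the pot-2 stretch held 0 CCAAT on either strand. The longest run of identical bases in the entire pair of genes was 21 bp.

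The strongest peak at pot-3 in each list fell at the start of the gene. Its signal value was 83.4 in the final and pooled lists (nuclear rank 1 in the latter, or 26 when mitochondrial peaks are counted), 45.4 in replicate 1 (rank 1) and 44.5 in replicate 2 (rank 2). The next nuclear peak of the final list, at Y69H2.9, had 80.8, and the list ended at 38.6 for the peak at chd-7, just above 38.5 for the strongest nuclear peak left out of it, at K02F3.2. In the lists made on the older build ce10, whose positions were not used, the strongest pooled and final nuclear peak was also on chromosome III at 83.4, and the chromosome III maximum was 48.9 in replicate 1 and 41.6 in replicate 2; whether these are the pot-3 peak was not tested.

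The replicates placed the pot-3 summit differently. In replicate 1 it lay 71 bp after the gene start, 16 bp from the CCAAT, in a peak covering III 13780131 to 13780440. In replicate 2 the strongest peak covered III 13780000 to 13780289, with its summit 70 bp before the gene start and with 0 CCAAT in the whole peak. A separate replicate 2 peak at III 13780202 to 13780491, with signal 21.3 and nuclear rank 577, covered the box, and its summit was 41 bp from it. So the overlap of the final peak with both replicates holds, but the box lay under the strongest peak of replicate 1 and not under that of replicate 2.

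**Figure D1:**
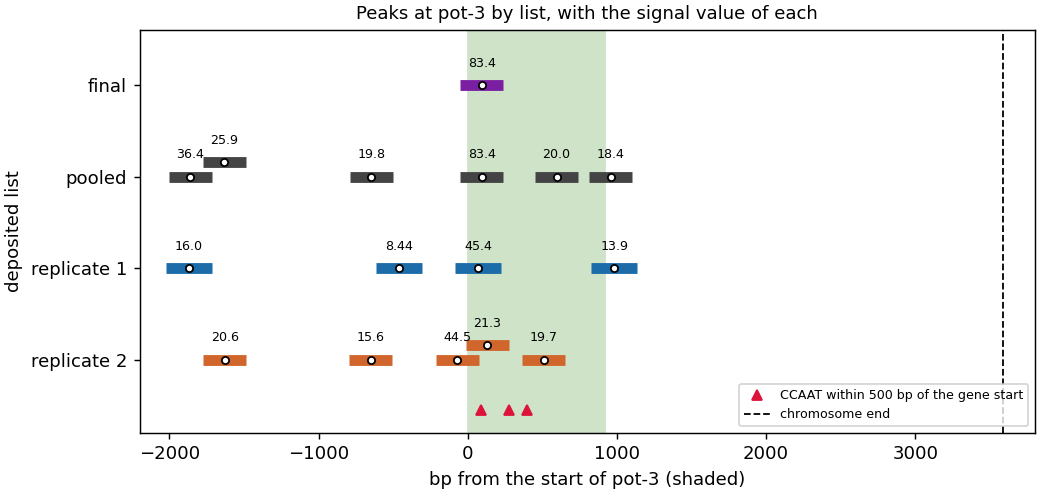
Peaks of the 4 lists around pot-3 (bars, with summits as circles and signal values as numbers) against the distance in bp from the gene start; the gene is shaded and triangles mark the 3 CCAAT within 500 bp of its start. The replicate 1 peak of 45.4 and the pooled peak of 83.4 lie over the CCAAT 87 bp after the start, while the replicate 2 peak of 44.5 is centred 70 bp before the gene.

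The stretch before the gene is repeated in the genome. It is shown for the summit of the strongest replicate 2 peak, chrIII:13780095-13780195 on the gene strand, which has no CCAAT and so no capitals:
pot-3 upstream: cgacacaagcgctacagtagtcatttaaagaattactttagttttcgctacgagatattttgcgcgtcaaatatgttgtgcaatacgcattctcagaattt
Of the 215 bases of that peak before the gene start, 196 are written in lower case in the RefSeq genome, its mark for repeats, and 472 alignments elsewhere reached 90% identity over 100 bp. For the final peak, 37 of the 52 bases before the gene start were so marked, and 0 other alignments reached that limit. Its 1089 other matches fell short of it in length or identity, and 997 of them ended before the gene start. The labels and files do not state how reads that match several positions were placed, and the part of the repeat in the replicate 2 peak was not tested.

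The other pooled peaks within 5 kb of pot-3 were weaker. The strongest of them, with signal 36.4 and rank 121 at III 13778210 to 13778499, lay in a coding exon of mdt-29, a subunit gene of the Mediator complex, 1860 bp before pot-3, and below the final list. It had 16.0 (rank 237) in replicate 1 and was overlapped in replicate 2 by a peak of 20.6 (rank 715) whose summit was 231 bp away. A neighbouring pooled peak of 25.9 (rank 2231) matched that replicate 2 peak within 4 bp. Both windows around these summits hold the box on the minus strand, which reads ATTGG on the plus strand printed here, and are shown for that reason at chrIII:13778305-13778405 and chrIII:13778532-13778632:
mdt-29 exon, 36.4: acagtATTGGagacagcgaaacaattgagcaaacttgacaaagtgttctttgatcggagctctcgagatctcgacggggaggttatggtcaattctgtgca
mdt-29 exon, 25.9: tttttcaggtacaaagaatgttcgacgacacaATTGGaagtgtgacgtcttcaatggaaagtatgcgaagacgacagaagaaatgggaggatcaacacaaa
The remaining 3 pooled peaks had 19.8 at 646 bp before the start, in the repeated stretch with 427 close copies elsewhere, 20.0 at 595 bp after it in a coding exon, and 18.4 at 959 bp, just past the gene. Only replicate 2 overlapped the peak at 595 bp (19.7, rank 1042), and only replicate 1 that at 959 bp (13.9, rank 774).

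The gene pot-3 ends 2668 bp from the right end of chromosome III, and the last 209 bp of that chromosome are TTAGGC repeats in the assembly. None of the 6 pooled peaks at pot-3 held a TTAGGC on either strand. Such absence is common, as 7.03% of all nuclear pooled peaks held one. On the inner side, 29758 bp without a pooled summit preceded the group of 6, a stretch that spans cyk-4, pdr-1, toca-2, dbn-1, rml-1 and mlc-7. Of 29968 intervals between neighbouring nuclear summits, 414 (1.38%) were as long, and the median was 1609 bp. In the part of it beyond 5 kb from pot-3, replicate 1 listed 2 peaks, the better at rank 1757, and replicate 2 listed 0. Of the 12 nuclear chromosome ends, 6 had a pooled summit in their outer 6 kb and 1, that of pot-3, had a final peak. The best nuclear rank there at any other end was 4179, at the left end of chromosome III. The final peak and the rank at the pot-3 end follow from the choice of pot-3, so this contrast supports nothing. The remaining 4 genes lie farther inside, with pot-2 at 754313 bp from the right end of chromosome II the nearest.

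The gene pot-2 (II 14524173 to 14525108) had no final peak. Its strongest pooled peak, at II 14524118 to 14524407, had signal 28.4 and rank 1177, with the summit 90 bp after the start in a coding exon. On the alignment this summit falls 84 bp after the start of pot-3, 9 bp from the pot-3 summit, which was noticed after the values were seen. A weaker pair, 625 bp into pot-2 (16.2, rank 19093) and 595 bp into pot-3 (20.0, rank 9116), lay 26 bp apart on the alignment. Both peaks of this pair were overlapped in replicate 2 alone. There the summits, 625 bp into pot-2 and 511 bp into pot-3, lay 110 bp apart on the alignment. The strongest pot-2 peak had 21.7 (rank 493) in replicate 2 at the same summit and no overlapping peak in replicate 1. Of all nuclear pooled peaks of ranks 1001 to 3000, 89.8% had one in replicate 1 and 98.4% in replicate 2. In replicate 2 the pot-2 value of 21.7 was close to the 21.3 of the peak that covers the box in pot-3, with aligned summits 48 bp apart.

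The remaining pooled peaks at pot-2 were 13.7 in sequence between genes, 15.9 in a coding exon of btb-20 and 16.4 in an intron of F57C2.4. Of the 5 pooled peaks at pot-2, 1 was found in both replicates, that in F57C2.4, and it was also the only one with a box within 50 bp of the summit. The peak of 13.7 is one of 2 pooled peaks at the 5 genes with close copies elsewhere. Both replicates had a peak in F57C2.5 beyond pot-2, of 12.5 (rank 1645) and 18.1 (rank 1877), with no pooled peak of its own there.

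At pot-1 (III 7131880 to 7133678, minus strand) both pooled peaks lay upstream in coding exons of neighbours. The peak at III 7135568 to 7135857 in B0280.17 had 25.4 (rank 2588), with 10.5 (rank 4124) in replicate 1 and 15.2 (rank 5078) in replicate 2, the summits within 3 bp of each other. The peak at III 7137587 to 7137876 in B0280.11 had 25.7 (rank 2390), with 7.90 (rank 13004) and 18.2 (rank 1800). These were the pooled peaks with the closest agreement in position between replicates, and both are 2035 bp or more from pot-1. Neither had a box within 50 bp of the summit. In the gene itself replicate 1 alone had a peak, of 7.82 at rank 13374. A CCAAT lies 23 bp before the annotated start of pot-1, and no peak of any of the 4 lists had its summit within 500 bp of that start.

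At mrt-1 (I 8660831 to 8663105) the only pooled peak, 17.8 at rank 14163, lay 643 bp past the gene in a coding exon of syp-3, a gene of the synaptonemal complex. It had 7.38 in replicate 1 and 9.25 in replicate 2, whose summit was 137 bp away in an intron, and it held 0 CCAAT. A replicate 2 peak of 11.0 (rank 18050) in an intron was the only summit of any list inside mrt-1.

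At trt-1 (I 8765745 to 8771251), the longest of the 5 genes at 5507 bp, there were 8 pooled peaks, 3 of them in the gene. The strongest, 22.4 at rank 5164 in an intron, had 11.7 (rank 2399) in replicate 1 and no overlapping peak in replicate 2. The peak nearest to the gene start, 289 bp before it in an untranslated exon of the neighbour lmn-1, the worm lamin gene, had 19.9 (rank 9264), with 17.1 (rank 2690) in replicate 2 and none in replicate 1. It held 2 CCAAT, the nearer 24 bp from the summit. Another peak matched in replicate 2 alone, 18.2 in an intron 837 bp after the start, held 3 CCAAT, the nearest 27 bp from the summit, where replicate 2 had 11.3. The sequence of that peak gave 3762 alignments in the genome, its own included, of which 1 reached 90% identity over 100 bp. Replicate 1 and replicate 2 thus each had their strongest trt-1 peak at a place where the other listed none. The 3 pooled peaks found in both were 20.4 in a coding exon of lmn-1, 18.0 in a coding exon of trt-1 and 13.8 in pqn-26.

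**Figure D2:**
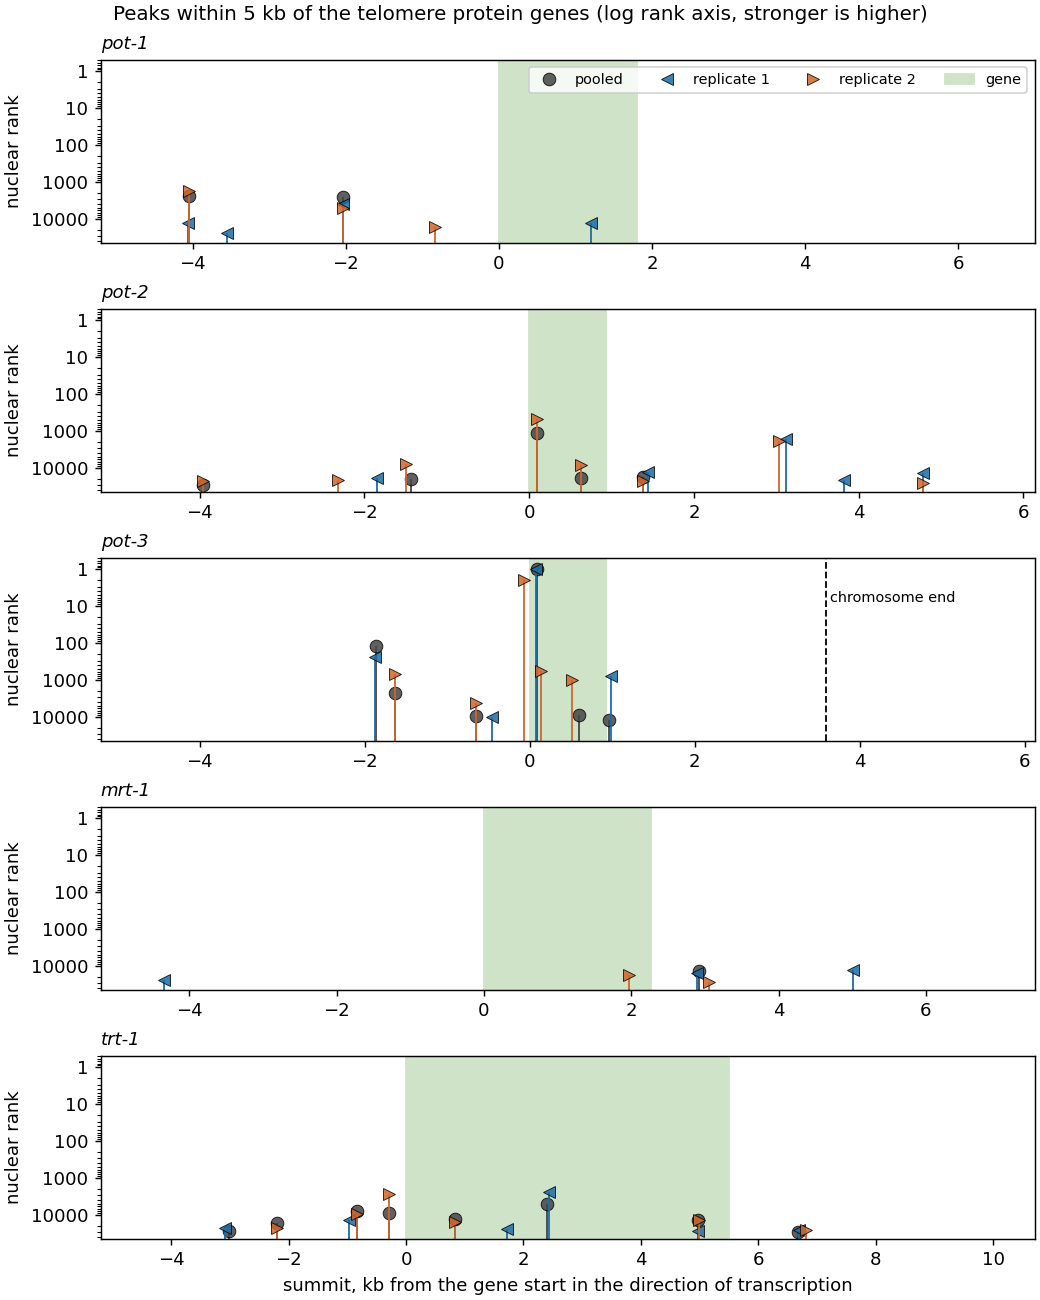
Nuclear rank (log axis, stronger peaks higher) of each peak within 5 kb of the 5 genes against its distance in kb from the gene start, for the pooled list (circles), replicate 1 (left triangles) and replicate 2 (right triangles); genes are shaded. Ranks better than 100 occur at pot-3 alone, and pot-2 has pooled and replicate 2 peaks at its start but none of replicate 1 in the gene.

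Counted over the 5 genes, 1 had a final peak within 5 kb, against 0.901% of all nuclear protein-coding genes, and this is the peak that the choice rested on. All 5 had a pooled peak, a replicate 1 peak and a replicate 2 peak, but so had 81.3%, 83.8% and 82.1% of all genes. The number of pooled peaks was 2 at pot-1, 5 at pot-2, 6 at pot-3, 1 at mrt-1 and 8 at trt-1, where the median over all genes was 4 with quartiles of 1 and 6. Per kb of gene and flanks the 5 genes had 0.170, 0.457, 0.699, 0.0815 and 0.516 pooled peaks in the same order. The median over all genes was 0.326 and the upper quartile 0.495. For pot-3 the flank was cut at the chromosome end, but the windows of the background genes were not. The 0.699 of pot-3 would therefore be lower on the measure of the background.

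By best pooled rank the order was pot-3 (1), pot-2 (1177), pot-1 (2390), trt-1 (5164) and mrt-1 (14163). A rank as good or better was held by 2 genes for pot-3, itself and mdt-29 through the same peak, by 14.1% of all genes for pot-2, 25.7% for pot-1, 43.7% for trt-1 and 71.1% for mrt-1. In replicate 1 the order of pot-1 and trt-1 was the other way round, with best ranks of 4124 and 2399, and pot-2 was at 1645, through its neighbour F57C2.5. In replicate 2 the best ranks were 2, 493, 1800, 2690 and 18050 in the pooled order. The quartiles of best pooled rank over all genes with a peak were 1778 and 9506, so that pot-1 and trt-1 lay between them, pot-2 on the stronger side and mrt-1 on the weaker.

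**Figure D3:**
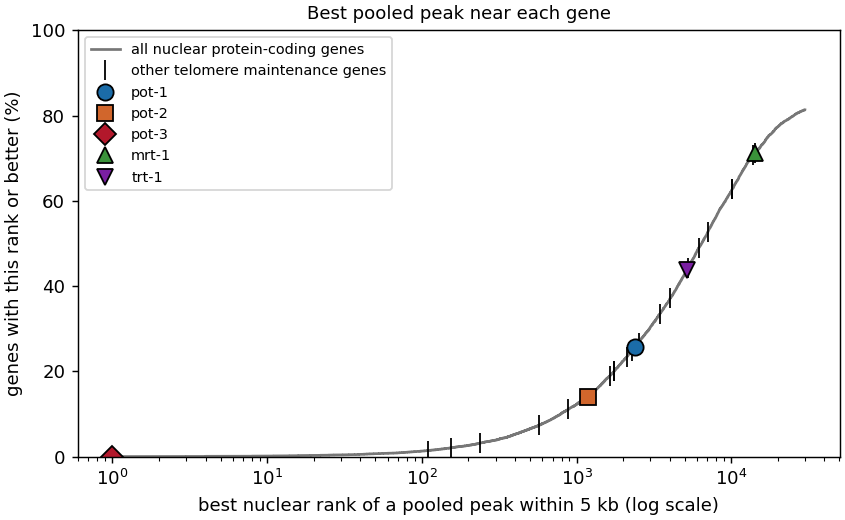
Share of all nuclear protein-coding genes (grey line, in %) whose best pooled peak within 5 kb reaches a given nuclear rank (log axis), with the 5 genes as symbols and the other telomere maintenance genes as ticks. The symbol of pot-3 stands at rank 1 and those of the other 4 between 1177 and 14163.

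Of the 22 pooled peaks, 11 were overlapped by 1 bp or more in both replicate lists, against 43.8% of all nuclear pooled peaks. A further 8 were found in replicate 2 alone and 3 in replicate 1 alone. Both counts run the way of the whole list, where 76.4% were found in replicate 2 and 62.6% in replicate 1. With 4 of 6 at pot-3, 2 of 2 at pot-1, 1 of 1 at mrt-1, 3 of 8 at trt-1 and 1 of 5 at pot-2, the 5 genes differed in this share, on small counts. Without pot-3, which was chosen by its peak, 7 of 16 were found in both, near the 43.8% of all. These shares depend on the 1 bp rule. At pot-3, the peaks of 36.4 and 25.9 were matched to the same replicate 1 peak (rank 237) and the same replicate 2 peak (rank 715). At mrt-1, the replicate 2 summit was 137 bp away. With summits within 100 bp, the 11 became 5. The median nuclear rank of the 22 peaks was 10904, and that of the 16 without pot-3 was 13896, in a list of 29974 nuclear peaks.

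**Figure D4:**
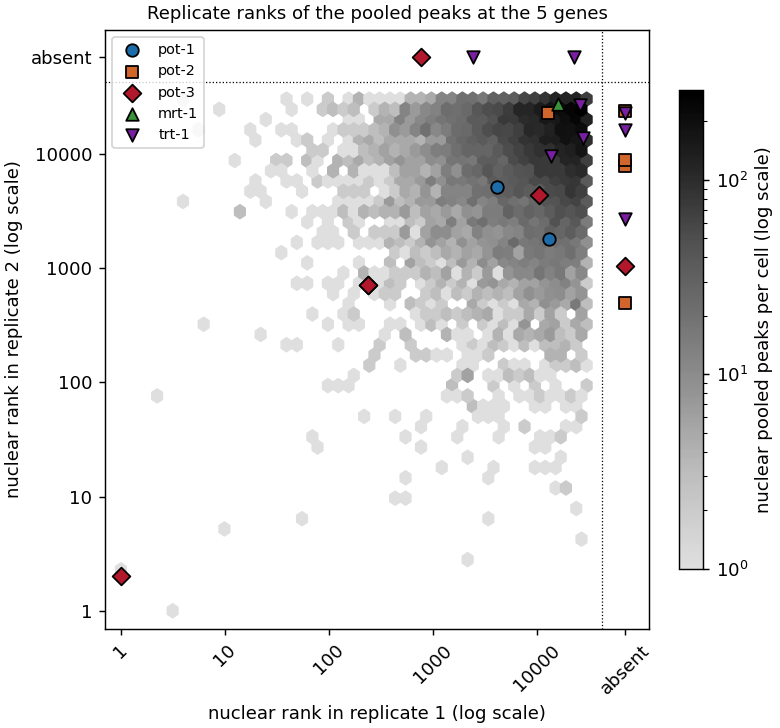
Nuclear rank of the strongest overlapping peak in replicate 1 and replicate 2 (log axes) for the pooled peaks at the 5 genes (symbols) and for all nuclear pooled peaks (grey cells, darker for more peaks); peaks with no overlap stand at "absent". The pot-3 peak is at ranks 1 and 2, and 4 of the 5 pot-2 peaks have no match in replicate 1.

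A CCAAT on either strand lay wholly within 50 bp of the summit in 7 of the 22 pooled peaks, against 21.7% of all nuclear pooled peaks: 3 at pot-3, 3 at trt-1, 1 at pot-2 and 0 at pot-1 and mrt-1. Anywhere in the peak, 12 of 22 held one, beside 50.4% of all. These shares were near the background. Within 500 bp of the gene start on each side, trt-1 had 4 boxes, pot-3 and mrt-1 had 3, pot-1 had 2 and pot-2 had 0; the median over all genes was 2, and 89.1% had at least 1. Summits lay in coding exons in 13 of 22 peaks, 46.9% being the share of all nuclear pooled peaks, and the median GC content of the 101 bp at the summit was 40.1% against 39.6%. TTAGGC occurred in 2 of the 22, at pot-1 and trt-1, against 7.03% of all nuclear pooled peaks.

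Among the nuclear peaks of the final list, the nearest to pot-3 were sought by rank over the pooled, replicate 1 and replicate 2 lists. They were at Y69H2.9 (ranks 2, 3 and 1; distance 0.64 in log10 rank), Y50D4C.5 (3, 10 and 5; distance 1.18) and Y17D7C.1 (6, 2 and 71; distance 1.76), followed by Y41E3.1 (1.93) and W05F2.4 (2.61). Those at Y69H2.9 and Y17D7C.1 are neighbours on chromosome V, starting at 18705520 and 18708086. None of the 5 had a CCAAT within 50 bp of the summit, where 21.7% of all nuclear pooled peaks had one, so this absence is common. Each lay 1001723 bp or more from a chromosome end.

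A list of 22 further telomere maintenance genes had no final peak, the share of all genes being the 0.901% given above. A pooled peak was near 20 of the 22, beside 81.3% of all genes, and 19 had one found in both replicates, beside 69.7% of all genes. The genes of the double-stranded telomere binders both had their best peak in their own coding exon, tebp-1 at rank 238 (33.8) and tebp-2 at rank 886 (29.4), but with replicate ranks as unequal as 7701 and 295 for tebp-1 and 25556 and 332 for tebp-2. Of 6 helicase and nuclease genes, rtel-1, which encodes a helicase, had the best rank of the list, 109, with signal 36.8 in its own coding exon, a CCAAT within 50 bp, and ranks of 562 and 834 in the replicates. Among 7 checkpoint genes the best was atm-1, a kinase gene of the DNA damage response, at rank 573 (31.0, replicate ranks 1396 and 1049). Of the 5 break repair genes, rad-50 had rank 154 (35.5), though this peak lay 3285 bp outside the gene in a coding exon of lrx-1. At the other end, ceh-37 and mrt-2 had best ranks of 13862 and 14202, and hpr-9 and wrn-1 had no pooled peak within 5 kb. The median best rank of the genes with a peak was 2394, that over all genes with a peak being 4621. These medians are not matched for gene length, and a longer gene has a wider window and more peaks to take the best from. For example, atm-1 had 20 pooled peaks, where the median over all genes was 4. In addition, clk-2 and lig-4 shared 1 peak, at rank 10147.

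The limit of 5 kb left few peaks close to it. The farthest pooled summit kept was 4054 bp from pot-1 (25.7). The nearest ones left out were 5111 bp from pot-1 (19.1, rank 10888) and 5843 bp from pot-2 (15.0, rank 23524). Next came one 6088 bp from trt-1 (23.7, rank 3880). It was stronger than the best peak kept at trt-1 (22.4, rank 5164), so the best rank of trt-1 depends on the limit.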

How the data were processed

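ChIP-seq peak lists of 2 biological replicates were used. Per the deposited descriptions of the files, the authors called peaks with background on each replicate and on both pooled, each against 1 control file, and thresholded a final list by the irreproducible discovery rate. The deposited signal value is the strength column of each peak, in a unit not given; the labels and files name no aligner or peak caller and give no depth, so precision is unknown. The second number used, the deposited summit offset, gives the summit position.

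Summits were set against genes of Ensembl release 115 on WBcel235, whose chromosome lengths hold all ce11 peaks. Peaks of different lists were matched at 1 bp of overlap, taking the strongest. CCAAT and TTAGGC were sought on both strands. Copies were sought with BLAST 2.17.0 (90% identity, 100 bp). The pot genes were first compared in pairs with BLAST. Only pot-2 and pot-3 gave an alignment, and these were then aligned over their whole length. Python 3.11.15, pandas 2.3.3 and numpy 2.4.6 were used; counting steps were tested on planted peaks and boxes.

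Named genes were the 5 genes, the listed telomere genes, genes at their peaks and those nearest in rank. The members and lists were chosen with earlier results of these data known. The ce10 lists, the pot-2 alignment, the gap and the repeats were added after values were seen.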

Additional observations from a re-analysis of the deposited data

How the results depend on the processing

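Of 33 recomputed values, that on ce10 included, 24 stayed within 1.5 times the reported one. At every distance, and in the upper part of the final list, pot-3 was the only gene of the 5 with a final peak. It was also the only one with a peak in the strongest 97 of either replicate. These values follow from the choice of pot-3 by its strongest peak, so they are no check on it, although they count among the 24. Counting summits in the gene body alone left 3 genes with a pooled peak, 7 peaks, 2 of them found in both replicates and 2 with a box. The 7 peaks with CCAAT became 11 within 100 bp and 12 anywhere in the peak. The 11 peaks found in both replicates became 5 with summits within 100 bp and 4 with the 10000 strongest peaks of each replicate list. To leave out a replicate, the list of the other replicate stood in for the pooled list and its 97 strongest peaks for the final list. No pooled or final list was made anew, so these are the replicate counts given above. In the 2 replicate lists pot-3 had rank 1 or 2, and 1 gene had a peak among the 97 strongest. All 5 genes had a peak in either list, with 22 or 24 peaks, of which 6 or 9 had a CCAAT. On ce10, an alternative added after the data were seen, the strongest pooled nuclear peak was on chromosome III; it was identified by chromosome only, and whether it is the pot-3 peak was not tested. No paired analysis was possible because the 2 samples form 1 group. The depth is unknown, so weak peaks cannot be given an error.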
